A study of Mus musculus with 12 samples.

Results

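Gene expression was compared between 3 cultures of MC38 cells kept for 24 h in DMSO and 3 kept for 72 h, to describe how expression in these tumor cells differed with longer culture in the absence of drug. MC38 is a transplantable mouse colon carcinoma line, and all RNA came from this single line. The 6 arrays were taken from the 12 of the series by their treatment and time labels, and no measured value was used to choose them. Each culture was seeded with 450000 cells in 22 ml of medium and received the solvent DMSO on the following day, and time was counted from that addition. The other 6 arrays came from the same cells with 100 nM of the MEK inhibitor GDC-0623, 3 at 24 h and 3 at 72 h. The labels describe the 3 arrays of a group as biological replicates, and this small number limits the precision. A change of medium is not described and cell density at harvest is not given in the sources used here, so hours in culture, crowding and use of the medium cannot be told apart.

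Cells sense the cholesterol in their membranes through the SCAP and INSIG proteins, which hold the transcription factor SREBP back when sterols are plentiful and release it to switch on sterol synthesis and uptake when they are scarce. Shortage of amino acids is read by kinases that raise translation of ATF4, the activator of genes for amino acid synthesis and import, and shortage of oxygen stabilises HIF factors that act on glycolysis and growth factor genes. The Id proteins bind basic helix-loop-helix transcription factors and keep them off DNA, and their genes are classical targets of bone morphogenetic protein (BMP) signals, which SMAD6 dampens in return. The sterol, amino acid and oxygen responses are known in crowded or starved cultures of many cell types.

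The arrays measured 18193 genes, each read from the probe set with its highest mean. With limma and Benjamini-Hochberg adjustment over all probe sets, 1530 genes were higher at 72 h (8.41%) and 935 were lower (5.14%). Large changes went mostly upwards. A change of at least 2-fold was seen in 131 genes that rose and in 5 that fell, which were Id1, Id2, Smad6, Id3 and Ccn2, and 12 genes rose at least 4-fold. The median change was 0.43 on the log2 scale among the genes that rose, −0.33 among those that fell and −0.02 over all genes. The first principal component of the 6 arrays held 56.8% of the variance and placed the 24 h arrays between −26.9 and −20.2 and the 72 h arrays between 22.9 and 25.6. When each array was instead shifted by its hybridization control probe sets, 1308 genes were higher and 314 lower, and the median over all probe sets moved from −0.03 to 0.01. The controls themselves overlapped between the groups, at 10.27 to 10.43 at 24 h and 10.25 to 10.42 at 72 h. When arrays were left out in turn, between 939 and 1141 genes were higher and between 372 and 654 were lower, with the fewest calls in both directions without replicate 3 at 24 h. Changes of single genes are given as log2 differences, 72 h minus 24 h, with the standard error (SE) of the fit after ±.

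**Figure D1:**
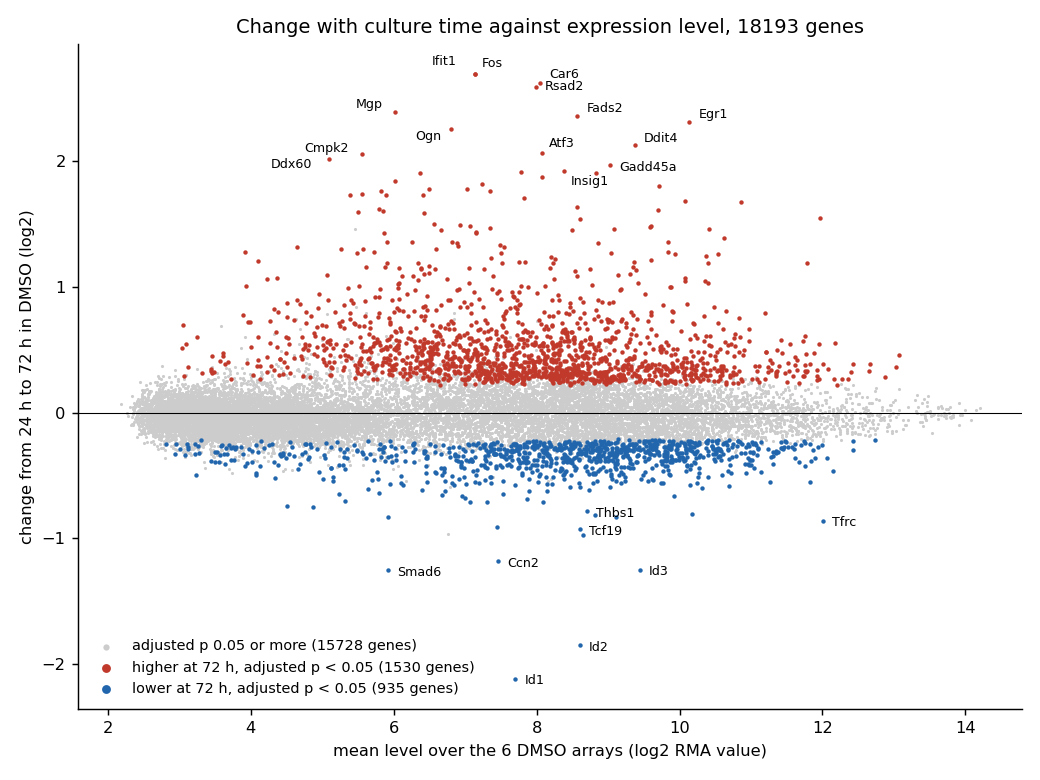
Change from 24 h to 72 h in DMSO (log2) against the mean log2 RMA value over the 6 DMSO arrays for 18193 genes, with 1530 higher genes in red, 935 lower genes in blue and the others in grey. The largest rises reach 2.69 (Fos and Ifit1), whereas Id1 and Id2 stand apart below at −2.11 and −1.85.

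All values are log2 RMA expression values, on which a difference of 1 is a 2-fold change, and values under 5 were treated as the background range of the array. Of the 18193 genes, 7335 lay under 5 in both groups. Of 16 markers of colon epithelium 12 were in this range, among them Cdh1, which encodes E-cadherin, and the keratin gene Krt18, while Epcam, Krt8, Cdx2 and Elf3 exceeded 5. None of the 16 passed limma's test and 1 had an unadjusted p below 0.05. Most listed markers of colon epithelium were thus not seen above background in cells labelled as colon carcinoma. Of 10 fibroblast markers 6 exceeded 5, among them Col3a1 and Pdgfra, and 4 lay in the background range. Of 17 leukocyte markers 11 lay in the background range, including Ptprc, the pan-leukocyte antigen CD45, at 2.91 and 2.75. The other 6 were Cd3e, Cd4, Cd8a, Csf1r, Cd68 and Cd14. Whether a value above 5 reflects expression was not tested for any of these lists. The linear values of the leukocyte list summed to 511 to 532 per array at 24 h and 573 to 622 at 72 h. Of the 17, Cd68 (0.92 ± 0.12, adjusted p = 0.00273) and Cd14 (0.55 ± 0.10, adjusted p = 0.0132) were called higher, Itgax, in the background range, was called lower (−0.23 ± 0.06, adjusted p = 0.0469), and the median change was −0.05. Itgax lost its call when any single array was left out (adjusted p = 0.0747 to 0.138), and Cd14 was no longer called without replicate 3 at 24 h (adjusted p = 0.0514). Endothelial markers lay in the background range in 8 of 10 cases and summed to 236 to 255 and to 236 to 249. In bulk RNA, more cells of a kind and more RNA per cell cannot be told apart, and the part of these markers in the changes described here was not tested.

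Id1 and Id2 showed the largest falls of the whole comparison. Id1 stood at 8.77, 8.74 and 8.76 on the 3 arrays at 24 h and at 6.78, 6.67 and 6.48 at 72 h. It was 4.33-fold lower at 72 h (log2 change −2.11 ± 0.08, adjusted p = 2.43e-05), and its 3 values at 24 h were nearly the same. Id2 went from 9.47, 9.54 and 9.59 to 7.76, 7.90 and 7.39, a 3.60-fold fall (−1.85 ± 0.12, adjusted p = 0.000121), which 2 of its 3 probe sets showed. Id3 was measured at 10.07, 10.06 and 10.08 and then at 8.79, 8.98 and 8.69 (−1.25 ± 0.08, adjusted p = 0.000112). For all 3 genes the groups were far apart, with no overlap between any array at 24 h and any at 72 h. Id4 lay in the background range at both times (−0.17, adjusted p = 0.171).

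In the BMP pathway, Smad6, the inhibitory SMAD induced by BMP signals, fell from 6.43, 6.41 and 6.80 to 5.43, 5.13 and 5.32 (−1.25 ± 0.12, adjusted p = 0.000793), and the helix-loop-helix gene Atoh8 fell by 0.54 (adjusted p = 0.00179). In the opposite direction, the ligand Bmp2 rose by 0.97 ± 0.24 (adjusted p = 0.0374), the signal-transducing Smad1 by 0.38, the receptor Bmpr2 by 0.30 and the pseudoreceptor Bambi by 0.49. Bmp4 lay in the background range at 3.74 and 3.49, and Smad5, Smad4 and Smad7 had changes of 0.10, 0.05 and −0.17, none past the threshold. Of the 29 measured genes of this list 5 rose and 5 fell, with a median change of −0.03. All 5 falls were still called when arrays were left out in turn, whereas 2 or 3 rises were called when any array but replicate 1 at 24 h was left out. Bmp2 itself no longer passed without replicate 1, 2 or 3 at 72 h (adjusted p = 0.123, 0.0840 and 0.0568), nor Bambi without replicate 2 or 3 at 24 h or replicate 2 at 72 h (0.0538 to 0.0635), nor Bmpr2 without replicate 2 or 3 at 24 h (0.0518 and 0.0520). Bmp2 also did not pass with the trended and robust prior (adjusted p = 0.097). The letters GCCGNCGC, searched as a SMAD1/5 element on both strands of the window from 250 bases before to 50 after a gene's start, occurred in 11 of 19 genes of this list (57.9%) against 10.9% of all 27025 genes with such a window. Of the genes of this list that fell, the match was in Atoh8, and the windows of Id2, Id3 and Smad6 did not hold these letters. They were also in 7 of 18 windows of the hypoxia list and 7 of 19 of the endoplasmic reticulum chaperone list. In the ribosome biogenesis and interferon-stimulated lists they were in 3 of 25 and 1 of 22 windows.

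**Figure D2:**
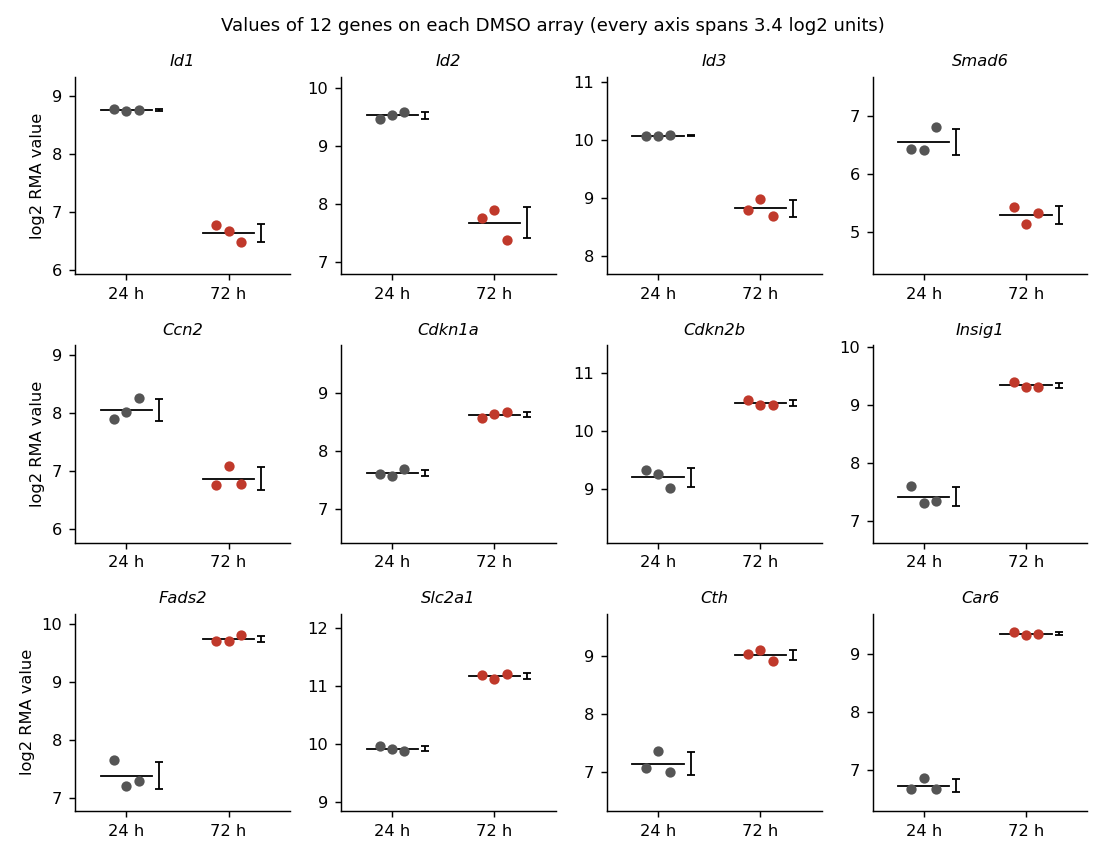
Log2 RMA values of 12 genes on the 3 DMSO arrays at 24 h (grey) and the 3 at 72 h (red). Points are arrays, horizontal lines are means and bars beside them are 1 SD (3 arrays). No group overlaps the other, and Id1, Id2, Id3, Smad6 and Ccn2 are lower at 72 h whereas the other 7 genes are higher.

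Ccn2, which encodes a matricellular growth factor and is a common target of YAP and TGF-beta, fell from 7.89, 8.01 and 8.25 to 6.75, 7.09 and 6.77 (−1.18 ± 0.12, adjusted p = 0.000999). Thbs1, the matrix glycoprotein thrombospondin, fell by 0.78 ± 0.09 and Amotl2, a scaffold that binds YAP, by 0.59. The related Ccn1 and Ankrd1 rose by 0.53 and 0.80, so targets of YAP/TEAD went both ways, with 4 of 18 higher and 5 lower (median −0.05). Leaving out any single array gave 3 or 4 lower, with 3 without replicate 3 at 24 h or replicate 2 at 72 h. Among TGF-beta genes, Tgfbi had the largest rise (1.30). It lost its call without replicate 2 or 3 at 24 h or replicate 1 or 2 at 72 h (adjusted p = 0.0571 to 0.0840). The same held in the fit over all 12 arrays (0.0547) and with the trended and robust prior (0.0784). The transcriptional repressor Tgif1 rose from 8.81, 8.77 and 8.72 to 10.01, 10.03 and 9.85 (1.20 ± 0.07, adjusted p = 7.81e-05) and the SMAD corepressor Skil rose by 0.52. Of the 21 genes of that list 8 rose and 3 fell, and 3 to 5 rises were left when any array but replicate 1 at 24 h was omitted, and 4 in a fit over all 12 arrays.

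Sterol synthesis rose along nearly the whole pathway. Of 18 measured enzymes 15 were higher at 72 h and none was lower, with a median change of 1.01, and 15 were called under each of the 14 other settings in which lists were counted. Hmgcs1, which makes HMG-CoA at the entry of the pathway, stood at 9.36, 9.26 and 9.29 at 24 h and at 10.53, 10.55 and 10.60 at 72 h (1.26 ± 0.06, adjusted p = 3.91e-05). Fdps, the farnesyl diphosphate synthase, showed the largest rise of the 18, from 10.24, 9.88 and 9.95 to 11.66, 11.64 and 11.78 (1.67 ± 0.10, adjusted p = 7.84e-05), with 1 of its 2 probe sets called. Squalene synthase, Fdft1, went from 7.82, 7.67 and 7.74 to 9.41, 9.26 and 9.45 (1.63 ± 0.08, adjusted p = 3.41e-05), but another of its 4 probe sets was called lower. Msmo1, which removes methyl groups from lanosterol derivatives, rose from 8.97, 8.87 and 8.86 to 10.54, 10.47 and 10.51 (1.61 ± 0.06, adjusted p = 2.43e-05). For each of these enzymes no array at 72 h overlapped an array at 24 h, and the gap exceeded the spread within either group.

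Among the remaining enzymes, the rise was 1.46 ± 0.08 for the lanosterol demethylase Cyp51, 1.36 for Mvd, 1.23 for Nsdhl, 1.06 for the lanosterol synthase Lss, 1.03 for Pmvk and 0.99 for the squalene epoxidase Sqle. The changes were smaller in Idi1 (0.89), Sc5d (0.73), Dhcr7 (0.64), Hsd17b7 (0.52) and Mvk (0.47). The 3 members that did not pass were Ebp (0.11, adjusted p = 0.425), Tm7sf2, which lay in the background range (0.21, adjusted p = 0.255), and Ggps1 (−0.01, adjusted p = 0.937), which leads away from sterols towards protein prenylation and of which 1 of 4 probe sets was called higher.

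Promoter stretches are printed for Hmgcs1 and Cyp51 because these genes stand for the entry and the later part of a pathway whose members rose together. Both are the 200 bases that precede the start in the RefSeq annotation of GRCm38.p6, 5′ to 3′ on the gene's strand, at chr13:119690151-119690350, plus strand for Hmgcs1 and at chr5:4104698-4104897, minus strand for Cyp51. Capitals mark CCAAT on either strand, the letters of the CCAAT box that NF-Y binds beside SREBP in many sterol genes.
Hmgcs1: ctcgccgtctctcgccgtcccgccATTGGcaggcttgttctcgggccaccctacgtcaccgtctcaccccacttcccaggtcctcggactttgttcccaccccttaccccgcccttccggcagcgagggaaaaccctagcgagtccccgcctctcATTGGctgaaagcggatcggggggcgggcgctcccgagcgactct
Cyp51: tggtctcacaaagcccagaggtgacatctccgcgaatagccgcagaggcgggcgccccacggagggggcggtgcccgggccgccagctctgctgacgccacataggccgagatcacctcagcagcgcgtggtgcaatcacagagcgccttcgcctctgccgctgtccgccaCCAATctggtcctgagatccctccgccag
The stretch of Hmgcs1 held CCAAT at −176 and −45 counted from the start, in reverse orientation, and that of Cyp51 held it at −29. Over the full windows, CCAAT was found in 15 of 15 sterol synthesis genes with a window (100%) and in 8 of 10 of the uptake and SREBP list (80%), against 41.1% of all genes. It was nearly as frequent in other lists, with 17 of 19 windows of the endoplasmic reticulum chaperone list and 22 of 26 of the mitosis list. The 3 members that did not rise, Ebp, Tm7sf2 and Ggps1, held it too. A sterol regulatory element written as TCACNCCA was found in 2 of 15 synthesis genes (13.3%), Hmgcs1 and Msmo1, and in 4.97% of all genes. A total of 19 patterns was searched in 13 lists, and those described were chosen after their matches were seen. A match describes letters and not binding.

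Of 13 measured genes of sterol uptake, transport and control 10 rose and none fell (median 0.47). Insig1, itself an SREBP target that holds SREBP in the endoplasmic reticulum, stood at 7.60, 7.31 and 7.34 and then at 9.39, 9.31 and 9.31, 3.78-fold higher (1.92 ± 0.09, adjusted p = 3.41e-05). Its paralog Insig2 stayed within the spread (0.04, adjusted p = 0.792), as did Scap (−0.03, adjusted p = 0.817). The transcription factors Srebf2 and Srebf1 rose by 0.64 and 0.55. Vldlr, a lipoprotein receptor that ATF4 also induces, rose by 1.15 ± 0.08 with all 6 probe sets called, the sterol carrier Stard4 by 0.86, the receptors Lrp8 and Scarb1 by 0.49 and 0.47, and the lysosomal Npc2, Lipa and Npc1 by 0.38, 0.32 and 0.29, of which Lipa lost its call when any single array was left out and Npc1 without replicate 1 or 3 at 24 h or replicate 1 or 2 at 72 h (adjusted p = 0.0598 to 0.0903). Npc1 also missed the threshold with the replicate block (adjusted p = 0.0534) and in the fit over all 12 arrays (0.0501). Mylip, which sends lipoprotein receptors for degradation, had a change of 0.12 (adjusted p = 0.389). Among genes of sterol efflux, the cholesterol exporter Abca1 rose by 1.28 ± 0.09 and the acyltransferase Lpcat3 by 1.09, whereas Abcg1 and Apoe lay in the background range.

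**Figure D3:**
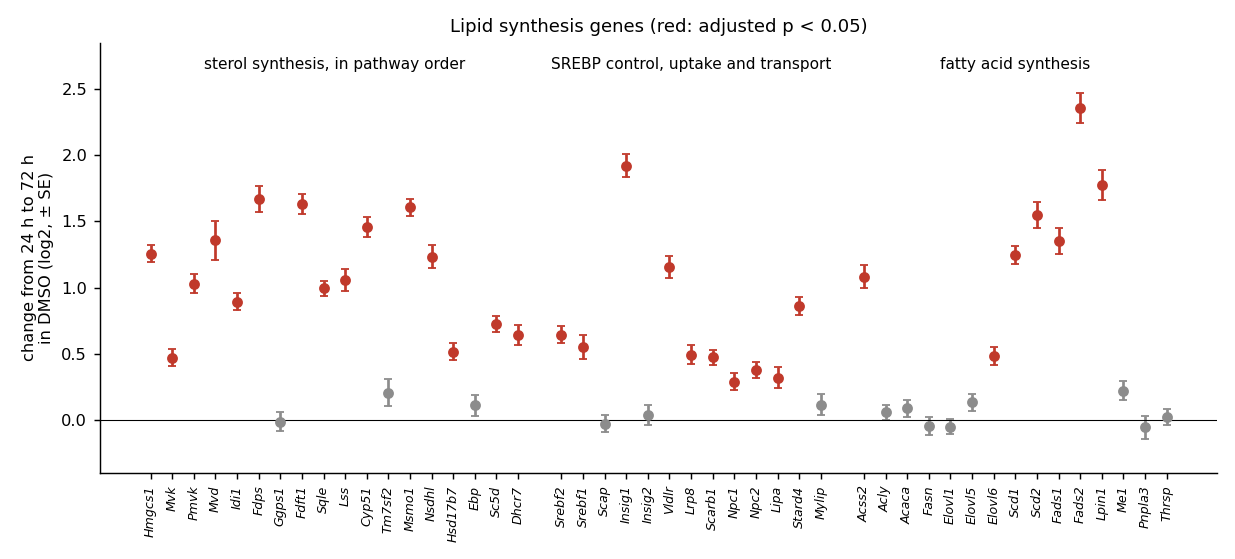
Change from 24 h to 72 h in DMSO (log2, points with 1 SE, 3 arrays per group) for 18 enzymes of sterol synthesis in pathway order, 13 genes of SREBP control, uptake and transport and 15 genes of fatty acid synthesis. Red points passed the threshold. Fads2 (2.36) and Insig1 (1.92) are highest, and Acly, Acaca and Fasn lie near 0.

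Of 15 fatty acid synthesis genes 7 rose and none fell (median 0.22). Fads2, a desaturase that makes polyunsaturated fatty acids, rose from 7.66, 7.22 and 7.30 to 9.72, 9.72 and 9.81, 5.12-fold (2.36 ± 0.11, adjusted p = 3.41e-05), and all 3 probe sets were called. Its partner Fads1 rose by 1.35 ± 0.10, and the desaturases of saturated fatty acids Scd2 and Scd1 rose by 1.55 and 1.25. Lpin1, a phosphatidate phosphatase, rose from 5.68, 5.76 and 5.36 to 7.50, 7.25 and 7.37 (1.77 ± 0.11, adjusted p = 0.000104). The acetate ligase Acss2 rose by 1.08 and the elongase Elovl6 by 0.48, while the elongases Elovl1 and Elovl5 had changes of −0.05 and 0.13 and did not pass. The core enzymes of chain synthesis did not pass, with changes of 0.06 in Acly (adjusted p = 0.605), 0.09 in Acaca (adjusted p = 0.452) and −0.05 in Fasn (adjusted p = 0.728).

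Hypoxia targets rose in 16 of 20 cases with none lower (median 0.55). Ddit4, an inhibitor of mTORC1 that both HIF and ATF4 induce, stood at 8.51, 8.38 and 8.06 at 24 h and at 10.23, 10.41 and 10.68 at 72 h, 4.36-fold higher (2.12 ± 0.14, adjusted p = 0.000126). Ankrd37 rose from 5.82, 6.08 and 5.55 to 7.16, 7.36 and 7.42 (1.50 ± 0.13, adjusted p = 0.000501), and Ndrg1 from 8.92, 8.60 and 9.01 to 10.30, 10.27 and 10.39 (1.48 ± 0.11, adjusted p = 0.000189) with all 5 probe sets called. Ero1a, an oxidase of disulfide formation, had values of 9.62, 9.73 and 9.69 and then 11.15, 11.17 and 11.09 (1.46 ± 0.06, adjusted p = 2.66e-05). In each of these 4 genes every array at 72 h exceeded every array at 24 h by more than 1. The mitophagy receptor Bnip3 rose by 1.19, the peptide hormone Adm by 1.11, P4ha2 by 0.79, the angiogenic factor Vegfa by 0.69 and Hif1a itself by 0.30 (adjusted p = 0.0231, and 0.0557 to 0.0821 when any array but replicate 3 at 24 h was left out). Car9, a carbonic anhydrase often read as a hypoxia marker, was called (0.52) but lay in the background range at both times (4.11 and 4.63), and it no longer passed without replicate 1 or 2 at 24 h (adjusted p = 0.0562 and 0.0726). Kdm3a, Car12, Egln1 and Epas1 did not pass the threshold, with changes of 0.26, 0.07, 0.01 and −0.10. When arrays were left out in turn, 12 to 14 members were called. ACGTG, the core of the HIF site, was in the promoter windows of 13 of 18 members (72.2%) and of 21.8% of all genes.

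Of 20 measured glycolysis genes 6 rose and none fell (median 0.13). The glucose transporter Slc2a1, a HIF target, rose from 9.96, 9.90 and 9.87 to 11.19, 11.11 and 11.20, 2.39-fold (1.26 ± 0.06, adjusted p = 4.01e-05), with all 3 probe sets called. Hexokinase Hk2 rose by 0.72 ± 0.07, Pfkp by 0.48, the lactate exporter Slc16a3 by 0.46, Pfkfb4 by 0.33 and Aldoa by 0.32. Pfkfb4 lost its call without replicate 1 or 3 at 24 h or replicate 1 or 3 at 72 h (adjusted p = 0.0664 to 0.0881) and with the replicate block (0.0545). The enzymes Tpi1, Pgk1, Pkm, Ldha and Pgam1 had changes between 0.04 and 0.17 with adjusted p-values of at least 0.106. With the trended and robust prior Tpi1, Pgk1 and Ldha passed as higher (adjusted p = 0.0011, 0.0036 and 0.025). Tpi1 also passed with the filter on dim probe sets (adjusted p = 0.027). That prior gave 10 glycolysis genes higher and 1 lower. Pfkfb3, a kinase that stimulates glycolysis, had a change of −0.45 (adjusted p = 0.0839), and passed as lower without replicate 1 at 24 h (adjusted p = 0.0202), with the replicate block (0.0183), the filter on dim probe sets (0.0487), the trended and robust prior (0.0281) and the shift by hybridization controls (0.0294). Oxidative phosphorylation had 1 gene of 34 lower and none higher (median −0.08). With the filter on dim probe sets 7 of its genes were lower, and with the trended and robust prior 11.

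Targets of ATF4 rose in 22 of 28 cases and none fell (median 0.50). Cth, which makes cysteine from cystathionine, stood at 7.07, 7.36 and 6.99 at 24 h and at 9.03, 9.09 and 8.91 at 72 h, 3.66-fold higher (1.87 ± 0.10, adjusted p = 6.5e-05). Atf3, a stress-induced transcription factor, went from 7.19, 6.80 and 7.14 to 9.28, 9.33 and 8.71 (2.06 ± 0.17, adjusted p = 0.000363). Trib3, a pseudokinase that feeds back on ATF4, went from 9.28, 9.21 and 9.23 to 10.94, 10.96 and 10.86 (1.68 ± 0.06, adjusted p = 2.43e-05). In all 3 genes the groups did not overlap, and replicate 3 was the lowest array at 72 h.

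The phosphatase subunit Ppp1r15a, which reverses the block of translation, rose by 1.80 ± 0.16. The chromatin protein Nupr1 rose by 1.54, the cystine transporter Slc7a11 by 1.47 and Chac1, which degrades glutathione, by 1.21. Smaller rises were measured in other enzymes and carriers, with 0.63 for Psph, 0.54 for Aldh18a1, 0.47 for the asparagine synthetase Asns, 0.34 for Slc3a2 and 0.31 for Slc7a5, of which Slc7a5 lost its call when any array but replicate 3 at 72 h was left out. Atf4 itself rose by 0.39 and Ddit3, which encodes the stress factor CHOP, by 0.35 ± 0.09 (adjusted p = 0.0486), although Ddit3 lost its call without replicate 2 or 3 at 24 h or any array at 72 h (adjusted p = 0.0666 to 0.144). Phgdh, the first enzyme of serine synthesis, had a change of −0.05 (adjusted p = 0.700) and Atf5 one of −0.19 (adjusted p = 0.149).

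Atf3 and Chac1 are shown because their promoters carry the letters TGATGNAA (capitals, either strand), a form of the C/EBP-ATF response element that ATF4 binds. The stretches are again the 200 bases before the start in GRCm38.p6 from RefSeq, at chr1:191183334-191183533, minus strand for Atf3 and at chr2:119351042-119351241, plus strand for Chac1.
Atf3: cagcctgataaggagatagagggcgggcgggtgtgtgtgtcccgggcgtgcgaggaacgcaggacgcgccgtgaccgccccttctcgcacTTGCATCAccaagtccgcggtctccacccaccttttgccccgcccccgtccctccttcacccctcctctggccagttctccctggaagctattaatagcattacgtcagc
Chac1: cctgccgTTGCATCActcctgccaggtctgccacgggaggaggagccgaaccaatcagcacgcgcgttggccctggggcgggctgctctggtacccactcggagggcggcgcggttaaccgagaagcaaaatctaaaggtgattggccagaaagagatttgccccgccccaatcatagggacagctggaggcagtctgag
The element began at −110 in Atf3 and at −193 in Chac1, in reverse orientation in both. It was present in the windows of 8 of 25 list members (32%) and of 4.51% of all genes.

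Other stress programs were not uniform. Of 19 aminoacyl-tRNA synthetases 9 rose and 1 fell (median 0.13), led by the tryptophan enzyme Wars (0.68), while the histidine enzyme Hars fell by 0.32. Genes of endoplasmic reticulum chaperones and the unfolded protein response rose in 12 of 22 cases and none fell (median 0.29), with rises of 0.77 in the sensor Atf6, 0.74 in Sel1l of the degradation complex and 0.54 in the transcription factor Xbp1. When arrays were left out, 7 to 12 of these were called, with 7 left without replicate 2 or 3 at 24 h. Of 16 measured cytosolic heat shock genes 7 fell and 1 rose (median −0.20), and each omission of an array left 6 lower. Hspa1b, an inducible HSP70, went from 10.64, 10.79 and 10.41 to 10.01, 10.07 and 9.95 (−0.60 ± 0.10, adjusted p = 0.00701), and Hsph1 from 12.09, 12.12 and 12.09 to 11.49, 11.55 and 11.61 (−0.55 ± 0.06, adjusted p = 0.00149). Dnajb1 and the cochaperone Bag3 fell by 0.48 and 0.47, and the small heat shock protein Cryab rose by 0.80. The heat shock element written as GAANNTTC was in 10 of 13 promoter windows of the list (76.9%) and in 9.04% of all genes. NRF2 target genes were called in 3 of 19 cases, namely Slc7a11, Srxn1 (0.73) and Nfe2l2 (0.25), and Nqo1 overlapped between groups (levels of 6.33, 6.0 and 7.09 against 7.25, 6.88 and 7.53, adjusted p = 0.119). Nfe2l2 lost its call when any single array was left out (adjusted p = 0.0665 to 0.112), with the replicate block (0.0620) and with the shift by hybridization controls (0.147). Nqo1 passed as higher without replicate 3 at 24 h (adjusted p = 0.0216), with the replicate block (0.0160) and with that shift (0.000293). The shift moves all genes of an array together, so this last p-value does not measure the spread of Nqo1 itself.

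Interferon-stimulated genes were higher at 72 h in 26 of 32 cases, with none lower (median 0.55). Ifit1, an antiviral RNA-binding protein, stood at 6.34, 5.66 and 5.37 at 24 h and at 8.71, 8.42 and 8.30 at 72 h, 6.44-fold higher (2.69 ± 0.22, adjusted p = 0.000366). Rsad2, the antiviral enzyme viperin, stood at 7.01, 6.71 and 6.38 and 9.67, 9.26 and 8.93 (2.59 ± 0.20, adjusted p = 0.000291), and Ifit3 at 5.70, 5.48 and 5.08 and 7.66, 7.11 and 7.20 (1.90 ± 0.18, adjusted p = 0.000749). In these 3 genes replicate 1 was the highest array within each group, and the groups did not overlap. Cmpk2, a mitochondrial nucleotide kinase, and the helicase Ddx60 rose by 2.06 and 2.02 from means of 4.52 and 4.08 in the background range, so these folds start from background. Rtp4 rose by 1.82, Irf9, which pairs with STAT2, by 1.19, Irf7 by 0.71 and Stat2 by 0.70. Between 20 and 24 members were called when arrays were left out, and 17 in a fit over all 12 arrays. The chemokine genes Ccl5 and Cxcl10 rose by 1.90 ± 0.17 and 0.86 ± 0.13, and Ccl7 fell by 0.71. Among interferon-gamma and GBP genes 9 of 22 rose and 1 fell (median 0.23), with a rise of 1.19 in Gbp3, and of 15 genes of MHC class I presentation 4 rose and none fell (median 0.20), with 2 left without replicate 2 or 3 at 24 h or replicate 1 at 72 h.

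The promoters of Ifit1 and Ifit3 are printed because they hold repeats of the letters GAAANNGAA (capitals, either strand), the core of the interferon-stimulated response element. Both stretches are the 200 bases before the start in GRCm38.p6 from RefSeq, at chr19:34640689-34640888, plus strand for Ifit1 and at chr19:34583329-34583528, plus strand for Ifit3.
Ifit1: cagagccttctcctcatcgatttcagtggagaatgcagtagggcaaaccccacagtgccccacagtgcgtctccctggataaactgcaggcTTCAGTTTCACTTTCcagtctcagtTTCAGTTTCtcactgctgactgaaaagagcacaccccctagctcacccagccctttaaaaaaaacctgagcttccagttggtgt
Ifit3: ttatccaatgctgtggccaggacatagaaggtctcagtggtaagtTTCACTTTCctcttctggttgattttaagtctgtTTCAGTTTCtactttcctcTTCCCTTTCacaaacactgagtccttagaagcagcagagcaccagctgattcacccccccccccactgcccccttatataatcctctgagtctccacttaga
Each stretch held 3 matches, those of Ifit1 at −109, −103 and −84, of which the first pair overlap, and those of Ifit3 at −155, −121 and −102. The letters occurred in the windows of 11 of 22 list members (50%) and of 9.76% of all genes.

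Immediate early genes, which answer growth factors and stress within minutes, were higher in 12 of 21 cases (median 0.54). Fos showed the widest spread of all genes named here, with 5.86, 5.57 and 5.93 at 24 h and 9.81, 8.43 and 7.18 at 72 h (2.69 ± 0.54, adjusted p = 0.0160). Egr1, a transcription factor induced by ERK, went from 9.09, 9.0 and 8.86 to 11.74, 11.58 and 10.55 (2.31 ± 0.27, adjusted p = 0.00178). Both genes were lowest in replicate 3 among the 72 h arrays, which was also the case for Ier2 (9.63, 9.47 and 9.55 and then 10.72, 10.74 and 10.33) and Ier3 (10.03, 9.83 and 9.93 and then 11.44, 11.45 and 11.05). Without that array 17 members of the list were called and without replicate 2 at 24 h 7 were, and in the latter case Fos no longer passed (adjusted p = 0.0611). Fos also did not pass with the trended and robust prior (adjusted p = 0.095). Klf4, a transcription factor of growth arrest, was tighter at 9.60, 9.54 and 9.49 and 10.63, 10.67 and 10.54 (1.07 ± 0.07, adjusted p = 9.08e-05). Output genes of the ERK pathway rose in 9 of 21 cases and none fell (median 0.25), with rises of 0.88 in the EGF receptor ligand Ereg, 0.84 in the ERK phosphatase Dusp6 and 0.75 in the ETS factor Etv5. Egr1 and Ier3 were counted in this list as well as among the immediate early genes.

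The CDK inhibitor genes Cdkn2b and Cdkn1a rose, from 9.34, 9.26 and 9.02 to 10.54, 10.45 and 10.46 for Cdkn2b (1.28 ± 0.09, adjusted p = 0.000166) and from 7.60, 7.57 and 7.68 to 8.57, 8.64 and 8.66 for Cdkn1a (1.01 ± 0.06, adjusted p = 9.52e-05). Ccng2, an atypical cyclin linked to arrest, rose from 6.32, 6.15 and 6.08 to 7.78, 7.56 and 7.67 (1.49 ± 0.09, adjusted p = 7.66e-05), and the pocket protein gene Rb1 by 0.83. Cyclin D3, Ccnd3, fell by 0.53 ± 0.07, whereas Ccnd1 had a change of 0.08 (adjusted p = 0.419). In that list 12 of 28 genes rose and 2 fell (median 0.19), and 7 to 10 rose when arrays were left out, with 7 left without replicate 2 at 24 h. Gadd45a, a gene of the DNA damage and stress response, rose from 7.99, 8.04 and 8.11 to 10.12, 10.19 and 9.72 (1.96 ± 0.12, adjusted p = 8.3e-05). Of 21 p53 targets 8 rose and none fell (median 0.20).

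DNA replication genes fell in 16 of 36 cases and none rose (median −0.23). The origin subunit Orc6 went from 10.01, 10.07 and 9.99 to 9.46, 9.48 and 9.44 (−0.56 ± 0.06, adjusted p = 0.00113), the cyclin gene Ccne2 from 8.79, 9.05 and 8.79 to 8.24, 8.38 and 8.34 (−0.56 ± 0.09, adjusted p = 0.00607), and the helicase factor Mcm10 and thymidine kinase Tk1 fell by 0.49 and 0.48. The falls were small, but the groups did not overlap in these 4 genes. Of 33 mitosis genes 9 fell and none rose (median −0.15), with changes of −0.55 in the survivin gene Birc5 and −0.38 in the transcription factor Foxm1, whereas Mki67 had a change of −0.12 (adjusted p = 0.271). Ribosome biogenesis genes fell in 12 of 30 cases and none rose (median −0.18), led by Rrp12, from 8.15, 8.29 and 8.20 to 7.50, 7.46 and 7.61 (−0.69 ± 0.07, adjusted p = 0.000996), while 1 of 26 ribosomal protein genes fell. These counts moved with the settings. With the shift by hybridization controls 8 replication, 2 mitosis and 3 ribosome biogenesis genes were lower, and in the fit over all 12 arrays 10, 1 and 5. Leaving out any single array gave 11 or 12 replication and 4 or 5 mitosis genes. For ribosome biogenesis it gave 4 without replicate 2 and 5 without replicate 3 at 24 h, 5 without replicate 1 at 72 h, and 7 or 8 otherwise.

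**Figure D4:**
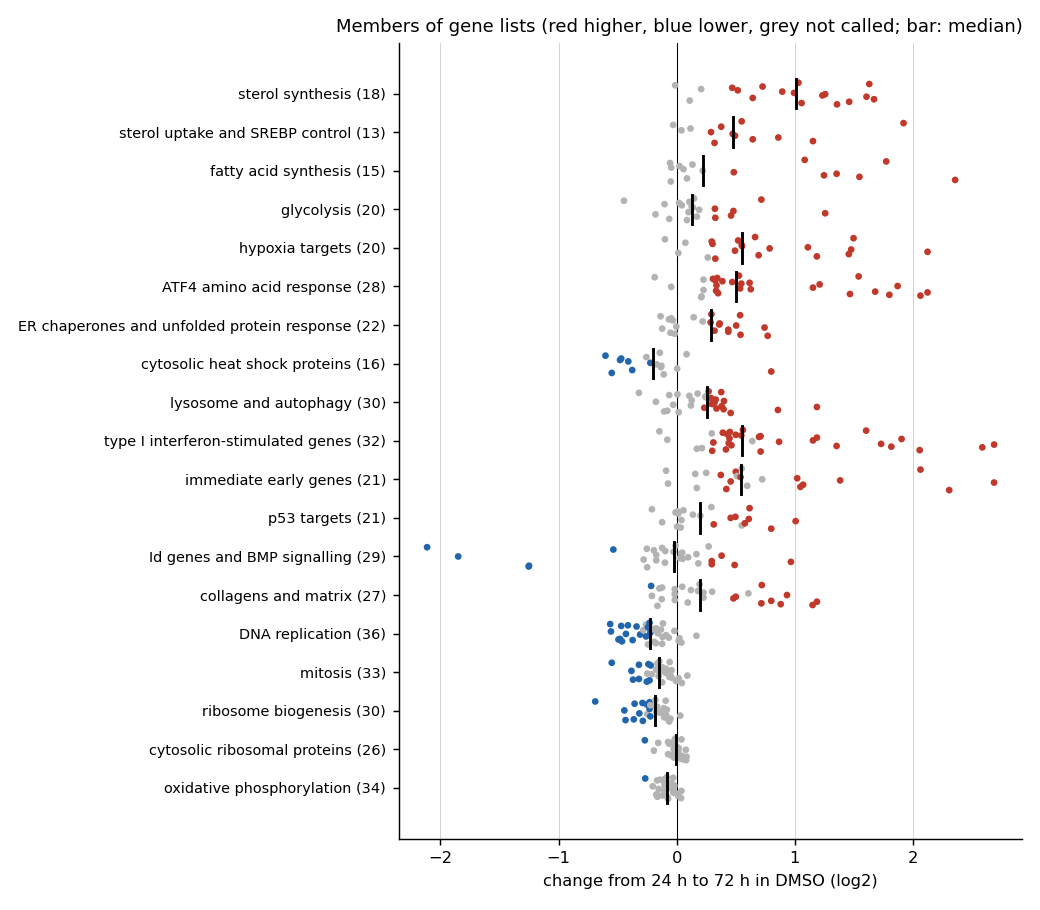
Change from 24 h to 72 h in DMSO (log2) for every measured member of 19 gene lists, with the number measured in brackets. Points are genes, red if higher, blue if lower and grey if not called, and black bars are medians, which run from 1.01 for sterol synthesis to −0.23 for DNA replication.

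Several genes that moved far were in none of the lists described above. Car6, a carbonic anhydrase, was among the most uniform, at 6.67, 6.87 and 6.67 and then at 9.38, 9.33 and 9.35, 6.13-fold higher (2.62 ± 0.07, adjusted p = 1.03e-05). Mgp, which binds calcium in the matrix, came out of the background range, from 4.84, 4.83 and 4.80 to 7.06, 7.25 and 7.33 (2.39 ± 0.08, adjusted p = 2.08e-05), and Ogn, a small proteoglycan, rose from 5.93, 5.65 and 5.46 to 7.68, 8.08 and 8.03 (2.25 ± 0.14, adjusted p = 9.36e-05). AA467197 rose by 1.91 ± 0.10. Sat1, which acetylates polyamines for export, rose from 9.03, 8.75 and 8.81 to 10.30, 10.43 and 10.30 (1.48 ± 0.09, adjusted p = 7.66e-05), while the polyamine synthase Srm and Azin1, which frees ornithine decarboxylase, fell by 0.40 and 0.41. The transferrin receptor Tfrc fell from 12.43, 12.43 and 12.47 to 11.45, 11.63 and 11.67 with all 3 probe sets called (−0.86 ± 0.07, adjusted p = 0.000429), and it was the only one of 11 iron genes that passed. Tcf19 fell by 0.93, 2700038G22Rik by 0.98, Smim4 by 0.91, Fam13b by 0.83 and the neuropeptide precursor Vgf by 0.83. The snoRNA host genes Snhg3 and Snhg4 fell by 0.82 and 0.80.

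Of 27 collagen and matrix genes 9 rose and 1 fell (median 0.19). Col3a1, a fibrillar collagen, went from 11.57, 10.99 and 11.01 to 12.38, 12.32 and 12.43 (1.19 ± 0.15, adjusted p = 0.00219), the proteoglycan Dcn from 7.79, 7.76 and 7.27 to 8.93, 8.65 and 8.69 (1.15 ± 0.14, adjusted p = 0.00235), and Col6a2 and Col6a1 rose by 0.93 and 0.88. The 10 fibroblast markers, which share Col3a1 and Dcn with that list, had 5 members higher and summed to 4562 to 5898 in linear units per array at 24 h and to 8489 to 9157 at 72 h. Pdgfrb was among them (0.79 ± 0.15, adjusted p = 0.0144) and lost its call without replicate 2 at 72 h (adjusted p = 0.0518). Thy1, Fap and Col1a1 lay in the background range. The part of fibroblast markers in the matrix counts was not tested. Lysosome and autophagy genes rose in 15 of 30 cases and none fell (median 0.26), with Bnip3 first, then the sialidase Neu1 with a rise of 0.86 and the autophagy receptor Sqstm1 with 0.46. Without replicate 3 at 24 h 7 were called, 8 without replicate 2 at 24 h or replicate 1 at 72 h, and 9 without replicate 3 at 72 h. TCACGTGA, the CLEAR element read by TFEB, was in 5 of 25 windows (20%) and in 1.12% of all genes. Of the lysosome and autophagy rises, Bnip3 was also counted in the hypoxia list, and Npc1, Npc2 and Lipa in the sterol uptake list.

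Transporter genes rose in 10 of 23 cases and 1 fell (median 0.21), with the glycine transporter Slc6a9 from 8.30, 8.03 and 8.18 to 9.34, 9.26 and 9.34 (1.14 ± 0.08, adjusted p = 0.000166) after Slc7a11 and Slc2a1. Of 18 clock genes 5 rose, led by the repressors Nfil3 (1.19 ± 0.12) and Bhlhe40 (1.13 ± 0.09). Gene families that were dim in these cells gave few or no calls. In limma, none of 16 keratin and epidermal genes passed and none had an unadjusted p below 0.05, with 13 in the background range. None of the 10 endothelial markers passed and 2 had an unadjusted p below 0.05. Of 27 junction genes 1 rose and 20 lay in the background range. The Wnt list was not dim in this way, with 8 of 23 genes in the background range, and 1 of the 23 rose.

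The time change was set beside that of the cultures with GDC-0623, and the difference between both changes was tested as a contrast over the 12 arrays. It passed for 561 genes (3.08%), of which 295 changed upwards more and 266 less in GDC-0623. Interferon-stimulated genes differed in 28 of 32 cases, all with the larger upward change in GDC-0623, where their median change was 2.27 against 0.55 in DMSO. Ifit3 changed by 4.91 in GDC-0623 against 1.90 in DMSO (adjusted p = 0.000193), Oas1a by 4.20 against 0.44 (adjusted p = 0.000131), Zbp1 by 4.60 against 0.50 (adjusted p = 1.56e-05) and Ifi27l2a by 5.56 against 0.45 (adjusted p = 1.21e-05). The DMSO changes of these last 3 were small, and none of the 3 was called without replicate 3 at 24 h or replicate 1 at 72 h (adjusted p = 0.0619 to 0.0977). For Ifit1 and Rsad2 the difference did not pass, at 0.81 ± 0.35 and 1.01 ± 0.37 (adjusted p = 0.312 and 0.214).

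The difference passed in 6 of 28 ATF4 targets and 4 of 20 hypoxia targets, with Ddit4 in both lists, and in each of these the change was smaller in GDC-0623. The remaining members did not pass, and the median changes in GDC-0623 and DMSO were 0.24 and 0.50 for the ATF4 list and 0.49 and 0.55 for the hypoxia list. Cth changed by 0.46 in GDC-0623 and by 1.87 in DMSO (difference −1.41 ± 0.25, adjusted p = 0.00753), Ddit4 by 0.85 and 2.12 (adjusted p = 0.00783), Ndrg1 by 0.36 and 1.48 (adjusted p = 0.00973) and Ero1a by 0.65 and 1.46 (adjusted p = 0.00103). The sterol synthesis list had medians of 1.01 in DMSO and 0.81 in GDC-0623, and 3 of 18 enzymes differed, Hmgcs1, Fdft1 and Msmo1, with differences from −0.54 to −0.48. For Insig1 the difference was −0.35 ± 0.12 (adjusted p = 0.165). None of the 36 replication or 33 mitosis genes differed by limma's contrast, with 3 and 8 at an unadjusted p below 0.05. Their median changes in GDC-0623 and DMSO were −0.37 and −0.23 for replication and −0.36 and −0.15 for mitosis.

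Id1 and Id2 changed less with the inhibitor, with log2 changes of −1.12 and −0.85 (adjusted p of the difference = 0.0260 and 0.0289), and for Id3 the difference did not pass (0.70 ± 0.20, adjusted p = 0.102). Ccn2, Thbs1 and Ccl7, all lower at 72 h in DMSO, changed by 0.93, 0.57 and 1.21 in GDC-0623 (adjusted p = 0.00164, 0.000439 and 0.000858). The lipocalin Apod and the proteoglycan Aspn had, with interferon genes, the largest differences, with changes of 5.51 against 0.99 and 4.62 against 0.34. In the opposite direction, Car6 had a change of 0.44 in GDC-0623 against 2.62 in DMSO (adjusted p = 0.000260), the receptor gene Cd300lb one of −1.37 against 1.35, the junction protein gene Cxadr −0.14 against 1.77, Nqo1 −1.16 against 0.75 and the actin-binding Avil −0.14 against 1.76.

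**Figure D5:**
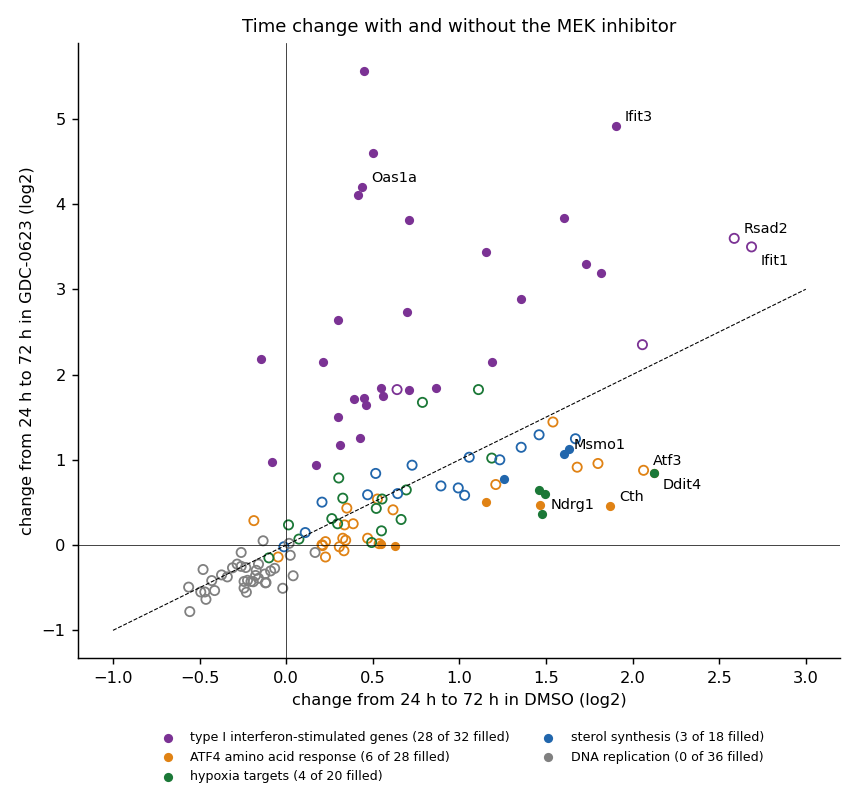
Change from 24 h to 72 h in GDC-0623 (vertical) against that in DMSO (horizontal), both log2 and from 3 arrays per group, for 5 gene lists. Filled points differ between both changes (adjusted p below 0.05, contrast over 12 arrays), the dashed line marks equal changes, and 28 of 32 interferon-stimulated genes lie filled, above the line.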

How the data were processed

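RNA of MC38 cells was hybridised to 12 Affymetrix mouse genome-wide 3′ expression arrays. The deposited values are log2 expression values per probe set, made by the authors by robust multichip averaging (RMA), which corrects background, equalises the arrays' distributions and summarises probes. RMA is named in the submitters' processing notes, and its version is not given in the sources used here. Because RMA equalises distributions, a shift of all genes together would not be visible.

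From these values, 45037 non-control probe sets were tested in limma 3.58.1 (R 4.3.3) on the 6 DMSO arrays, 72 h against 24 h, two-sided, with Benjamini-Hochberg adjustment over all of them. A gene was called at an adjusted p below 0.05. The probe set with the highest mean over the 12 arrays stood for a gene. Of the probe sets tested, 34945 had 1 gene symbol, 932 several and 9160 none in the annotation. The difference between the time changes in GDC-0623 and DMSO was a contrast over 12 arrays. The code was tested on simulated data.

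Described by value were the 15 largest rises and 15 largest falls among called genes with non-overlapping groups and a mean of at least 6 in the higher group, up to 4 members of each list with the largest change, and the 5 largest differences each way. Other list members were named after their values were seen. Genes of 50 lists were counted (936 measured), and these lists were chosen with earlier results of these data known, so their counts are descriptions. Alternatives were a fit over all arrays, a replicate block, a filter on dim probe sets, repeated quantile normalisation, another prior, a shift by hybridization controls, array weights, mean probe sets, a minimum fold and the omission of single arrays. Promoter windows from RefSeq (GRCm38.p6) matched 713 of the 936 genes. Gene names of the array annotation can be old, and probe sets of a gene can disagree.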

Additional observations from a re-analysis of the deposited data

Results flagged for a closer look

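The change from 24 h to 72 h differed between the GDC-0623 and the DMSO cultures, by limma's contrast over 12 arrays with an adjusted p below 0.05, in the described genes that follow. Values are the log2 change in GDC-0623 minus that in DMSO, with 3 arrays in each of the 4 groups, and each gene entered for this difference alone. Interferon-related genes changed more over time in GDC-0623 than in DMSO, by 5.12 for Ifi27l2a, 4.10 for Zbp1, 3.76 for Oas1a, 3.11 for Irf7, 3.01 for Ifit3, 2.24 for Gbp3, 2.04 for Stat2, 1.37 for Rtp4 and 0.96 for Irf9. Matrix, signalling and secreted-factor genes also stood above their DMSO change, by 4.53 for Apod, 4.29 for Aspn, 2.11 for Ccn2, 1.93 for Dcn, 1.92 for Ccl7, 1.35 for Thbs1 and 0.89 for Col1a1. The same sign was found in other genes, at 1.0 for Id2, 1.0 for Id1, 0.99 for Smim4, 0.71 for Ccnd3, 0.58 for Tcf19, 0.54 for Scd1 and 0.37 for Dnajb1. The change was lower in GDC-0623 among genes of nutrient and oxidative stress, at −1.90 for Nqo1, −1.41 for Cth, −1.28 for Ddit4, −1.12 for Ndrg1, −0.99 for Slc7a11, −0.90 for Ankrd37, −0.84 for Srxn1, −0.81 for Ero1a, −0.64 for Vldlr, −0.63 for Psph, −0.62 for Sel1l and −0.58 for Wars. It was lower in lipid and transporter genes, at −1.12 for Slc6a9, −0.76 for Scd2, −0.68 for Slc2a1, −0.54 for Msmo1, −0.50 for Fdft1 and −0.48 for Hmgcs1. It was also lower in genes of the cell cycle and damage response, at −1.18 for Gadd45a, −0.85 for Cdkn1a and −0.69 for Cdkn2b. Other genes that stood below their DMSO change were at −2.72 for Cd300lb, −2.18 for Car6, −1.91 for Cxadr, −1.90 for Avil and −0.70 for Mgp. For Col1a1, Aspn and Nqo1 the change in DMSO did not pass the threshold. Cxadr has 5 probe sets, of which 3 were called higher and 1 lower in DMSO.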

How the results depend on the processing

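No described gene changed direction between the reported fit and an alternative in which either fit called it. Sign changes of genes that neither fit called were not counted. Medians near 0 could change sign, as over all probe sets with the shift by hybridization controls (−0.03 to 0.01). As reported, 1530 genes were higher and 935 lower. The filter on dim probe sets raised the lower count to 1632, the trended and robust prior to 1717, and the shift by hybridization controls reduced it to 314. That shift moves all genes of an array together, so p-values under it can miss the spread of single genes. Tested against a minimum fold of 2, 21 genes were higher and 1 lower. The higher count lay between 1308 and 2140 in the other settings that kept all arrays. Leaving out 1 array gave 939 to 1141 higher and 372 to 654 lower genes, and 352 to 661 genes that differed between GDC-0623 and DMSO, against 561 with all arrays. The filter on dim probe sets gave 852 such genes.

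With the replicate block 1388 genes were higher, 703 lower and 710 differed between GDC-0623 and DMSO. The numbers were not treated as pairs, since arrays with the same number deviated together with correlations of 0.109, 0.159 and 0.0678, although each array correlated best with its own number, which is a hint from the data and not from the design.

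The cause of these shifts was not tested, beyond the smaller number of genes tested with the filter (11052) and the smaller number of arrays. Among lists, mitosis genes called lower numbered 15 with the filter and 18 with the trended and robust prior, against 9. Over the genes described and the alternatives, 3821 pairs of gene and setting stayed as they were, called or not called. A call was gained in 63 pairs and lost in 205. With 3 arrays a group, changes near the threshold are the least certain, and genes in the background range can hide changes.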

Other observations

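Several list members not named above also changed with culture time in DMSO. Igfbp4, which binds insulin-like growth factors, rose from 8.52, 8.39 and 7.64 to 9.69, 9.57 and 9.34 (log2 change 1.35 ± 0.21, adjusted p = 0.00604), and the insulin receptor gene Insr rose by 0.59 ± 0.06 (adjusted p = 0.00144). Txnip, an arrestin-domain protein that limits glucose uptake, rose by 0.60 ± 0.07 (adjusted p = 0.00243). The sestrin gene Sesn2, a target of p53 and ATF4, rose by 0.62 ± 0.11 (adjusted p = 0.00944).

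Of 22 measured mesenchymal and contractile genes 3 rose and 2 fell, with a median change of −0.045. Among those that fell, the transcription factor Snai1 went from 6.44, 6.28 and 6.34 to 5.88, 5.91 and 5.75 (log2 change −0.51 ± 0.07, adjusted p = 0.00437). Il33, which encodes an alarmin, varied widely, at 5.48, 5.02 and 3.70 on the 24 h arrays and 7.0, 6.06 and 5.52 on the 72 h arrays, and did not pass the threshold (adjusted p = 0.0954), although it passed as higher with the replicate block (adjusted p = 0.00679) and with the shift by hybridization controls (1.24e-06). The groups did not overlap in Igfbp4, Snai1 or Il33, but for Il33 the gap was far smaller than the spread within a group. The p-value of Il33 under the shift does not measure that spread, since the shift moves all genes of an array together. These adjusted p-values are from limma over all probe sets.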
